A study of Homo sapiens with 12 samples.

Results

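The genes of the translation initiation factors (eIFs) and elongation factors (eEFs) were described in HepG2 cells, a human hepatocellular carcinoma line, over a time course of insulin stimulation. Members were all genes in the deposited count table whose symbols start with EIF and a digit from 1 to 6, or with EEF1 or EEF2. Symbols containing AK, BP or K were left out, which removes the kinases and binding proteins that act on the factors, as were symbols ending in P and a number, which removes pseudogenes. This gave 54 of the 26364 genes in the table, and 50 of them had enough reads to be tested. RNA-seq was done on 10 libraries, 2 at each of 0, 5, 10, 30 and 240 min of insulin. By the labels every library came from cells kept in serum-free EMEM for 16 h and then given 3 nM insulin with BSA. The 0 min libraries carry the same label and were taken here as the unstimulated reference. The treatment label gives the insulin step as 5 min for every RNA library, so times were taken from the sample titles. These give the min after insulin stimulation, and do not say whether insulin stayed on throughout. Times called min of insulin below are those of the titles. The study's methods describe the RNA-seq as a single experiment on biologically independent samples. The labels do not say which cultures the replicates came from, so p-values measure the spread between the libraries of that experiment. An insulin receptor (IR) ChIP-seq library from insulin-stimulated HepG2 cells, with 1 library and its input, gave a list of peaks.

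Translation of an mRNA begins when eIF2 with GTP brings the initiator tRNA to the small ribosomal subunit, to which eIF1, eIF1A, eIF3 and eIF5 also bind. The cap of the mRNA is bound by eIF4E, which with the scaffold eIF4G and the helicase eIF4A forms eIF4F and recruits the small subunit. The large subunit joins with the help of eIF5B, eIF2 is recharged by the exchange factor eIF2B, and the elongation factors eEF1 and eEF2 deliver aminoacyl-tRNAs and move the ribosome along. Insulin is known to raise protein synthesis in the liver through AKT and mTOR, largely by phosphorylation of the proteins that control these factors. The libraries measure the RNA of the factors and not their activity.

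The libraries held 18347109 to 45005769 reads counted on genes. All 10 hepatocyte and HepG2 markers looked at, such as ALB and AFP, averaged at least 1 CPM (counts scaled to library size by the TMM method), with a summed level of 67000 to 83000 CPM. Of the fibroblast markers 2 of 5 reached that mean, and their sum was 14.8 to 15.1 CPM at 0 min and 10.4 to 11.3 CPM at 240 min. Of the leukocyte markers 1 of 5 did, the lysozyme gene LYZ, which made up nearly all of their sum of 5880 to 6430 CPM at 0 min and 4800 to 4950 CPM at 240 min. LYZ fell by 0.34 in log2 (SE 0.055, adjusted p = 7.55e-05) at 240 against 0 min, while CD14 stayed under 1 CPM in all libraries and PTPRC was at 0. Of the endothelial markers 1 of 5 did, with a sum of 3.57 to 3.75 CPM at 0 min and 4.2 to 4.21 CPM at 240 min. The leukocyte and endothelial lists each held 1 marker at 0 in all libraries. The part of these shifts in the results was not tested, and in bulk RNA a change in the make-up of the cells cannot be told apart from a change per cell.

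The share of RNA devoted to the factors was nearly flat over the time course. The 54 genes took 1.11% to 1.17% of the counts of each library and 1.64% to 1.72% of its summed TPM, a unit of transcript abundance that corrects for transcript length and so allows genes to be compared. By mean TPM over the 10 libraries, the highest was EEF1A1, which carries aminoacyl-tRNA to the ribosome, at 2470 TPM. EEF2, the translocase, followed at 1930 TPM, and EEF1G, a subunit of the eEF1B exchange complex, at 1220 TPM. The cap-binding protein EIF4E stood at 38.6 TPM, below its partners EIF4A1 (761 TPM), EIF4A2 (496 TPM) and EIF4G1 (259 TPM). The tissue-restricted forms of factors were low, with EIF5A2 at 7.33 TPM, EEF1A2 at 2.79 TPM and EIF4E3 at 1 TPM, and EIF4E1B was listed at 0 TPM and had 0 counts in all libraries. Of the 50 tested genes 45 had a mean of at least 20 CPM.

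The count table and the TPM tables went apart for some members, most plainly where counts were 0 or low. EIF4A1, the main eIF4A helicase (chr17:7476024-7482324, hg19, plus strand), had 0 counts in all 10 libraries, although its TPM was 764 and 773 at 0 min, 747 and 693 (5 min), 732 and 772 (10 min), 757 and 751 (30 min), then 751 and 868 at 240 min. A read-through gene, SENP3-EIF4A1, covers all of it on the same strand and had 42 counts in all. EIF3C, a core subunit of eIF3, also had 0 counts beside 756 to 822 TPM. Its near-identical copy EIF3CL had 0 counts and 0 to 25.7 TPM, and the models of the pair overlap each other at both of their loci on chromosome 16, so reads cannot be assigned between them. EIF5AL1, a near copy of EIF5A, had 7 to 46 counts and 26.7 to 35.8 TPM, and its level is uncertain. These genes are therefore described by TPM. EIF4A1 differed by 0.07 between 240 and 0 min on the log2(TPM + 1) scale (SE 0.073, limma adjusted p = 0.555), and EIF3C by 0.08 (SE 0.034, adjusted p = 0.141). EEF1A1, EEF1B2, EEF1G and EEF1E1 averaged 552, 59.6, 287 and 23.6 CPM beside 2470, 597, 1220 and 110 TPM. EEF2 had 2440 CPM and 1930 TPM. A read-through gene, EEF1E1-BLOC1S5, covers all of EEF1E1 on the same strand. CPM does not correct for transcript length, and whether reads of these genes were left uncounted was not tested.

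At 240 min of insulin the factors went in both directions, with small changes. Against 0 min, 27 of the 50 tested genes passed the test (54.0%; edgeR quasi-likelihood test, Benjamini-Hochberg adjusted p-value under 0.05 over all genes), of which 15 were higher and 12 lower. Among all 13852 genes tested the share was 41.0%, with 20.6% higher and 20.4% lower. The median log2 fold change of the members was 0.02, with quartiles at -0.13 and 0.21. Their median absolute change was 0.15, against 0.20 for all genes, and 3 of the 50 reached an absolute change of 0.5, of which EIF4E was called. Replicates did not overlap between 240 and 0 min for 21 members that were higher and 21 that were lower, beside 69.7% of all genes. Against the 30 min libraries, 26 members were called, 17 higher and 9 lower, beside 38.2% of all genes (19.8% higher and 18.4% lower). Both comparisons use the same 240 min libraries.

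The calls depended on scaling and on single libraries. Scaled by the ERCC spike-in RNAs in place of the gene counts, 0 of the 50 members were called at 240 against 0 min (2 at an unadjusted p under 0.05). That scaling shifted the median of all genes by -0.12 and of the members to -0.10, and left 1059 genes called of 13852. The direction of all 27 called members was kept under it. Without 0 min replicate 2, the deepest library, 17 members were called, and the other single libraries left out gave 22 or 23. With limma on log2(TPM + 1), 13 were called higher and 5 lower. Of the 27, 12 were called under each of the 8 other alternatives and without each of the 4 libraries in turn, namely EEF1E1, EIF1AX, EIF1B, EIF2S1, EIF3B, EIF3J, EIF4A3, EIF5 and EIF5B, which rose, and EIF1, EIF2B4 and EIF4A2, which fell.

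**Figure D1:**
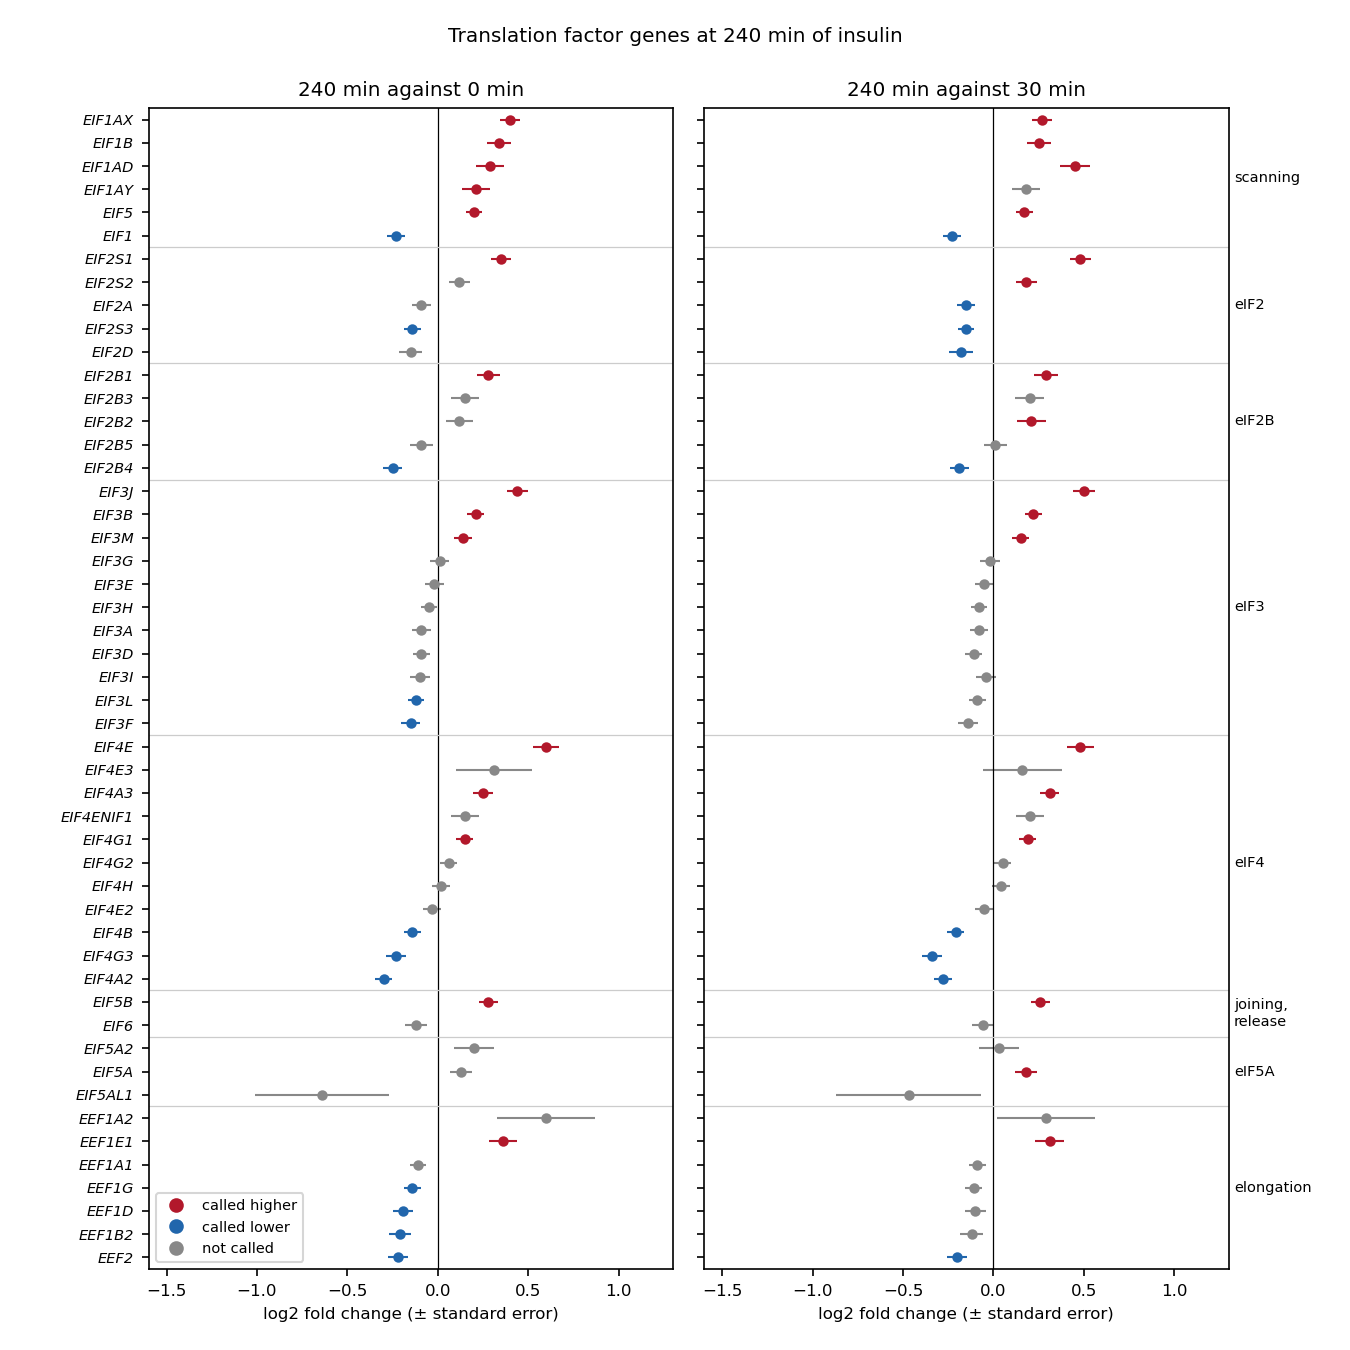
Log2 fold change of each tested translation factor gene at 240 min against 0 min (left) and against 30 min (right), grouped by role, with points colored by call and lines of 1 standard error. In the left panel 15 genes are called higher and 12 lower, with EIF4E at 0.60 and EIF4A2 at -0.30.

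No member was called before 240 min. At 5, 10 and 30 min against 0 min, edgeR and DESeq2 each called 0 of the 50 genes, beside 0.0%, 0.137% and 0.332% of all genes by edgeR. At an unadjusted p under 0.05 edgeR counted 8, 0 and 2 members, beside 14.3%, 5.13% and 8.12% of all genes, and DESeq2 4, 0 and 0 members. The median log2 fold changes of the members were -0.02, 0.02 and -0.01. The lowest unadjusted p at 5 min was that of EEF1B2, the guanine nucleotide exchange subunit of eEF1, at 57.8 and 51.4 CPM against 64.7 and 63.5 CPM at 0 min. Its log2 fold change was -0.23 (SE 0.061, adjusted p = 0.243), and without the filter on low counts it was called (adjusted p = 0.0445). Since this gene was singled out by its p, its value is a description.

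Among the cap-binding and helicase genes, EIF4E rose and EIF4A2 fell. EIF4E, the cap-binding subunit (chr4:99799607-99851786, hg19, minus strand), was at 24.7 and 22.1 CPM at 0 min, 24.8 and 27.1 (5 min), 24.9 and 26.7 (10 min), 25.4 and 25 (30 min), then 35.1 and 35.4 CPM at 240 min. The 240 min libraries lay above all 8 others, and the rise over 0 min was 0.60 in log2 (SE 0.073, adjusted p = 2.74e-06), a 1.52-fold change. Against 30 min the difference was 0.48 (SE 0.075, adjusted p = 4.08e-05). In TPM its value was 0.45 with an adjusted p of 0.128, so the call was lost there. EIF4A2, a paralog of the helicase EIF4A1 (chr3:186501361-186507685, plus strand), was at 344 and 364 CPM at 0 min, 358 and 375 (5 min), 331 and 340 (10 min), 348 and 353 (30 min), then 283 and 293 CPM at 240 min. Its 240 min libraries lay below all others, and it fell by 0.30 in log2 (SE 0.049, adjusted p = 6.74e-05) against 0 min.

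The ratio of the helicase paralogs was lower at 240 min. In TPM, EIF4A2 stood at 0.644 and 0.688 of EIF4A1 at 0 min, 0.708 and 0.788 (5 min), 0.663 and 0.639 (10 min), 0.667 and 0.703 (30 min), then 0.551 and 0.507 at 240 min. The 240 min libraries had the lowest ratios of the 10. In 240 min replicate 2, which had the lowest ratio, EIF4A1 was also at its highest of the 10, at 868 TPM. This ratio was chosen after the values of EIF4A2 were seen and was not tested.

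Of the 11 cap-binding and helicase genes tested, 3 were higher and 3 lower at 240 against 0 min (54.5% called, beside 41.0% of all genes). The other gene that rose besides EIF4E and EIF4G1 was EIF4A3, the helicase of the exon junction complex, from 102 and 95.8 CPM to 113 and 123 CPM (log2 fold change 0.25, SE 0.053, adjusted p = 0.000786). EIF4G1, the main scaffold, went from 574 and 565 CPM to 650 and 616 CPM (0.15, SE 0.047, adjusted p = 0.0139), but missed the threshold without 0 min replicate 2 (0.14, adjusted p = 0.096) and without 240 min replicate 1 (0.11, adjusted p = 0.139). Its paralog EIF4G3 went the other way, from 93.4 and 91.3 CPM to 76.4 and 80.7 CPM (-0.23, SE 0.054, adjusted p = 0.00175). Its call was lost in TPM, where the change was -0.11 (adjusted p = 0.312). EIF4B, which stimulates eIF4A, fell by 0.14 (SE 0.048, adjusted p = 0.0222), a call lost without 0 min replicate 2 (-0.11, adjusted p = 0.176), without 240 min replicate 2 (-0.12, adjusted p = 0.108) and in TPM (-0.09, adjusted p = 0.12). EIF4G2, a scaffold that lacks the eIF4E-binding site, did not pass the test (0.06, SE 0.049), nor did EIF4H (0.02, SE 0.050), EIF4E2 (-0.03, SE 0.049), EIF4E3 (0.31, SE 0.21) or EIF4ENIF1, the transporter of eIF4E into the nucleus (0.15, SE 0.076).

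**Figure D2:**
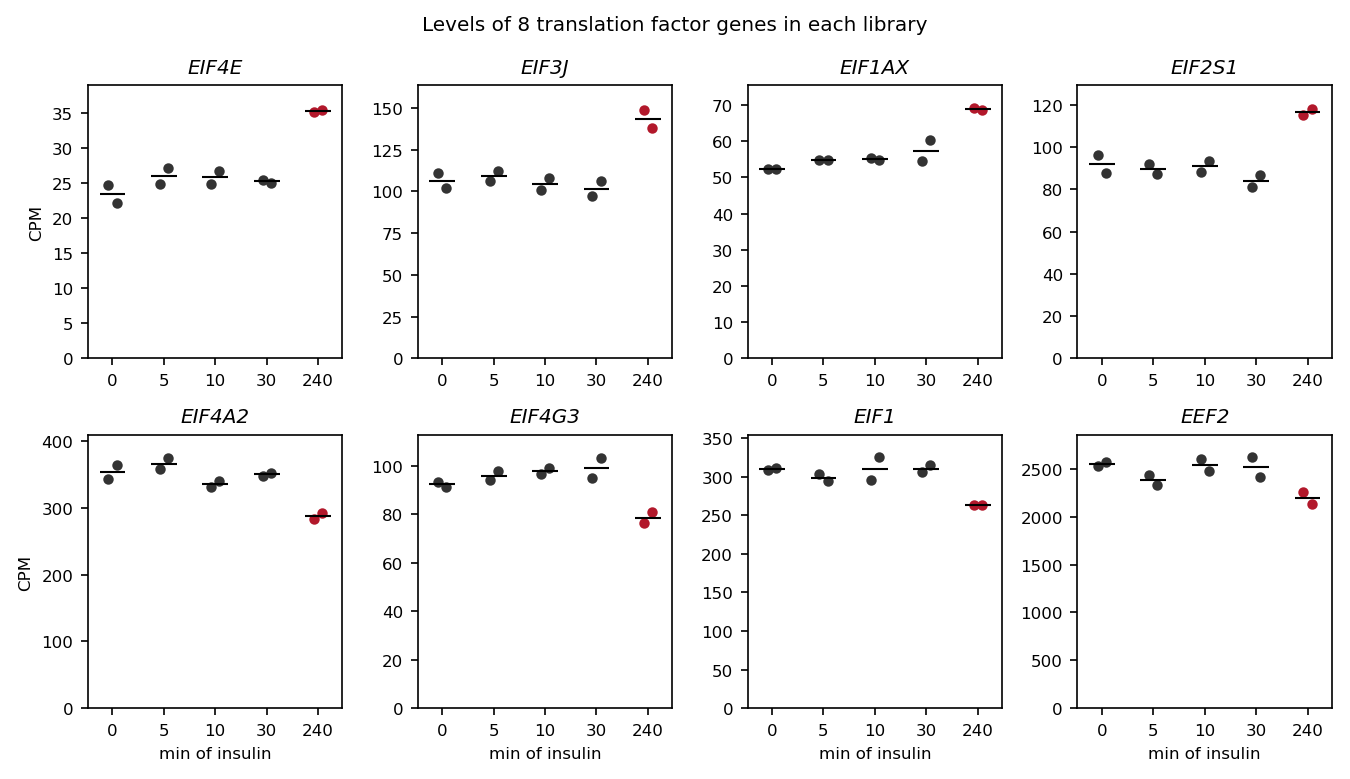
Level of 8 translation factor genes in each library in CPM against min of insulin, with each library a point and the mean of the 2 a line (240 min in red, axes from 0). EIF4E, EIF3J, EIF1AX and EIF2S1 are higher at 240 min than at any earlier time, EIF4A2, EIF4G3, EIF1 and EEF2 lower, and the earlier times lie close together.

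All 6 genes grouped under start codon scanning and selection were called at 240 against 0 min, 5 higher and 1 lower, beside 41.0% of all genes. The group was drawn up with earlier results of these data known, and the calls of EIF1AD and EIF1AY were lost without single libraries. It also holds EIF1AD, whose eIF1A-like domain does not by itself make it a scanning factor. EIF1AX, the eIF1A protein that opens the small subunit for scanning (chrX:20142636-20159966, minus strand), was at 52.2 and 52.3 CPM at 0 min, 54.7 and 54.7 (5 min), 55.3 and 54.7 (10 min), 54.5 and 60.3 (30 min), then 69.1 and 68.6 CPM at 240 min. The 240 min libraries were above all others, by 0.40 in log2 against 0 min (SE 0.056, adjusted p = 1.21e-05) and by 0.27 against 30 min (SE 0.056, adjusted p = 0.000857). EIF1, which guards start codon fidelity, and its paralog EIF1B went opposite ways. EIF1B (chr3:40351173-40353915, plus strand) rose from 43.3 and 41.4 CPM to 55.7 and 51.0 CPM (0.34, SE 0.065, adjusted p = 0.000363). EIF1 (chr17:39845127-39847898, plus strand) fell from 309 and 311 CPM to 263 and 264 CPM (-0.23, SE 0.050, adjusted p = 0.00105). In each of the paralogs the 240 min libraries did not overlap any earlier library.

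The GTPase-activating protein of eIF2, EIF5, rose from 339 and 328 CPM to 383 and 382 CPM (0.20, SE 0.045, adjusted p = 0.00174). EIF1AD, named for its eIF1A-like domain, went from 26.4 and 23.4 CPM to 30.6 and 29.7 CPM (0.29, SE 0.079, adjusted p = 0.00617), and was lost without 0 min replicate 2 (0.19, adjusted p = 0.165) and without 240 min replicate 1 (0.27, adjusted p = 0.0543). EIF1AY, the Y-linked paralog of EIF1AX, was called higher (0.21, SE 0.078, adjusted p = 0.0383), which did not hold without 0 min replicate 2 (0.15, adjusted p = 0.287), without 240 min replicate 1 (0.08, adjusted p = 0.529), with DESeq2 (0.20, adjusted p = 0.114) or in 2 of the 3 TPM fits (0.23, adjusted p = 0.0802 and 0.0823). Reads of the 2 paralogs may be split between them.

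The subunits of eIF2 did not move together. EIF2S1, the alpha subunit whose phosphorylation halts initiation under stress (chr14:67827034-67853233, plus strand), was at 96.2 and 87.7 CPM at 0 min, 92.2 and 87.1 (5 min), 88.1 and 93.6 (10 min), 81.0 and 86.7 (30 min), then 115 and 118 CPM at 240 min. Its 240 min libraries were above all others, by 0.35 in log2 against 0 min (SE 0.056, adjusted p = 6.84e-05) and 0.48 against 30 min (SE 0.058, adjusted p = 2.3e-06). EIF2S2, the beta subunit, was not called against 0 min (0.12, SE 0.058, adjusted p = 0.0963) and was higher against 30 min (0.18, adjusted p = 0.021). EIF2S3, the GTP-binding gamma subunit, went from 350 and 348 CPM to 319 and 317 CPM (-0.14, SE 0.045, adjusted p = 0.0215) and was lower against 30 min too (-0.15, adjusted p = 0.0112). Against 0 min it missed the threshold without each of the 4 libraries in turn, at -0.13 to -0.14 with adjusted p-values of 0.0634 to 0.0808, and in 2 of the 3 TPM fits (-0.11, adjusted p = 0.0569 and 0.0573). EIF2A and EIF2D, which can bring initiator tRNA without eIF2, were called against 30 min (-0.15 and -0.18, adjusted p = 0.0195 and 0.0324) and missed the threshold against 0 min (-0.09 and -0.15, adjusted p = 0.18 and 0.0604).

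Of the 5 subunits of eIF2B, 1 rose and 1 fell at 240 against 0 min (40% called, beside 41.0% of all genes). The alpha subunit gene EIF2B1 went from 42.5 and 38.3 CPM to 50.4 and 47.2 CPM (0.28, SE 0.065, adjusted p = 0.00166), a call lost without 0 min replicate 2 (0.20, adjusted p = 0.0687). EIF2B4, the delta subunit, fell from 61.3 and 63.0 CPM to 51.9 and 52.7 CPM (-0.25, SE 0.051, adjusted p = 0.000644). Its 240 min libraries were the lowest of the 10. EIF2B2, the beta subunit, was called against 30 min (0.21, SE 0.079, adjusted p = 0.0465) but not against 0 min (0.12, SE 0.076). EIF2B3 (0.15, SE 0.077) and EIF2B5, the catalytic subunit (-0.09, SE 0.062), did not pass the test against 0 min.

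Most eIF3 subunits did not pass the test. Of 11 tested, 3 were higher and 2 lower at 240 against 0 min (45.5% called, beside 41.0% of all genes). EIF3J, the loosely bound subunit (chr15:44829266-44855001, plus strand), was at 111 and 102 CPM at 0 min, 106 and 112 (5 min), 101 and 108 (10 min), 97.1 and 106 (30 min), then 149 and 138 CPM at 240 min. Its 240 min libraries did not overlap any other, and it rose by 0.44 (SE 0.059, adjusted p = 8.25e-06) against 0 min and by 0.50 (SE 0.060, adjusted p = 1.86e-06) against 30 min. EIF3B, a core scaffold, rose from 269 and 263 CPM to 311 and 302 CPM (0.21, SE 0.047, adjusted p = 0.00153). EIF3M was called higher (0.14, SE 0.048, adjusted p = 0.0247), and lost without 0 min replicate 2 (0.11, adjusted p = 0.2) and without 240 min replicate 1 (0.09, adjusted p = 0.255).

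EIF3F and EIF3L were called lower (-0.15 and -0.12, adjusted p = 0.0354 and 0.0398). Neither was called without any 1 of the 4 libraries, at -0.17 to -0.13 for EIF3F and -0.13 to -0.11 for EIF3L. Without the filter on low counts both missed the threshold (adjusted p = 0.0793 and 0.0748), as did EIF3F with DESeq2 (adjusted p = 0.0891) and EIF3L with only the times compared in the model (adjusted p = 0.0736) and in TPM (-0.08, adjusted p of 0.124 to 0.142). EIF3A, the largest scaffold subunit, was at 532 and 542 CPM at 0 min, 544 and 574 (5 min), 531 and 537 (10 min), 524 and 547 (30 min), then 523 and 490 CPM at 240 min, a difference of -0.09 between 240 and 0 min (SE 0.050, adjusted p = 0.186). The remaining 5 ranged from -0.10 for EIF3I to 0.01 for EIF3G. EIF3K, an eIF3 subunit that the rule leaves out because of its letter, was at 68.1 and 64.3 CPM at 0 min and 60 and 61.3 CPM at 240 min (-0.12, SE 0.055, adjusted p = 0.0805).

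Of the 7 genes with EEF symbols, 4 were called lower at 240 against 0 min, of which EEF1B2 and EEF1D turned direction in TPM. The 1 called higher was EEF1E1, which despite its symbol encodes no elongation factor but a scaffold protein of the aminoacyl-tRNA synthetase complex. Called genes made up 71.4% of the 7, beside 41.0% of all genes. Against 30 min only 1 of the 7 was called lower and 1 higher. EEF2 (chr19:3976054-3985461, minus strand) was at 2530 and 2570 CPM at 0 min, 2440 and 2330 (5 min), 2600 and 2480 (10 min), 2620 and 2420 (30 min), then 2260 and 2130 CPM at 240 min. The 240 min libraries were the lowest of the 10, though the 5 min libraries came near them, and EEF2 fell by 0.22 in log2 (SE 0.056, adjusted p = 0.00388). In TPM its change was -0.18 (adjusted p = 0.0805). EEF1A1 (chr6:74225473-74230755, minus strand) was at 563 and 564 CPM at 0 min, 547 and 533 (5 min), 584 and 573 (10 min), 561 and 552 (30 min), then 531 and 516 CPM at 240 min. This difference of -0.11 did not pass the test in edgeR (SE 0.046, adjusted p = 0.0762) and did in DESeq2 (adjusted p = 0.0326).

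The subunits of the eEF1B exchange complex were called lower, and their calls depended on single libraries and on the unit. EEF1B2 went from 64.7 and 63.5 CPM to 53.9 and 57.4 CPM (-0.21, SE 0.062, adjusted p = 0.0119) and EEF1D from 136 and 131 CPM to 118 and 116 CPM (-0.19, SE 0.055, adjusted p = 0.00958). The 5 min libraries were near these levels too, at 57.8 and 51.4 CPM for EEF1B2 and 123 and 115 CPM for EEF1D. The 10 min libraries were nearer to 0 min, at 61.7 and 64.6 CPM for EEF1B2 and 130 and 127 CPM for EEF1D. At 30 min EEF1B2 was at 62.3 and 58.2 CPM and EEF1D at 132 and 118 CPM. EEF1G was at 303 and 296 CPM at 0 min, 274 and 279 (5 min), 302 and 294 (10 min), 300 and 285 (30 min), then 277 and 265 CPM at 240 min. In TPM EEF1B2 and EEF1D were both at 0.02 at 240 against 0 min, so their direction turned. Both calls were lost without 0 min replicate 1, as was that of EEF1B2 without 240 min replicate 1 and that of EEF1D without 240 min replicate 2. EEF1G was called lower (-0.14, SE 0.048, adjusted p = 0.0227) and was lost without 0 min replicate 1, 0 min replicate 2 or 240 min replicate 2 (adjusted p = 0.112, 0.0582 and 0.146) and in TPM (-0.06, adjusted p = 0.413). EEF1E1 rose from 20.9 and 22.4 CPM to 27.2 and 28.6 CPM (0.36, SE 0.076, adjusted p = 0.000936). EEF1A2, the form of muscle and neurons, had 1.34 to 3.63 CPM and was not called (0.60, SE 0.27, adjusted p = 0.0807).

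For subunit joining, EIF5B rose from 365 and 363 CPM at 0 min to 450 and 432 CPM at 240 min (0.28, SE 0.051, adjusted p = 0.000245), with 352 to 386 CPM at the times between. EIF6, which keeps the ribosomal subunits apart until the large one is mature, was at 141 and 140 CPM at 0 min and 126 and 134 CPM at 240 min (-0.12, SE 0.060, adjusted p = 0.126). EIF5A, the hypusine-bearing factor that relieves stalled ribosomes, was at 215 and 191 CPM at 0 min, 202 and 186 (5 min), 212 and 219 (10 min), 199 and 193 (30 min), then 212 and 233 CPM at 240 min. Its 240 min libraries overlapped those at 0 min (0.13, SE 0.061, adjusted p = 0.0933) and were above those at 30 min (0.18, SE 0.061, adjusted p = 0.0225).

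Genes that control or assist the factors also went both ways at 240 min. Of 28 tested genes in a list of kinases, binding proteins and modifying enzymes that also holds EIF3K, 4 were higher and 8 lower against 0 min. This was 42.9% called, near the 41.0% of all genes. PDCD4, which blocks eIF4A, was at 124 and 136 CPM at 0 min, 136 and 152 (5 min), 126 and 121 (10 min), 131 and 135 (30 min), then 98.2 and 89.1 CPM at 240 min. It fell by 0.47 (SE 0.063, adjusted p = 6.88e-06), and was called with ERCC scaling as well (-0.58, adjusted p = 0.0307). The other large falls were EIF2AK4, the eIF2 alpha kinase GCN2 (-0.32, adjusted p = 3.48e-05), and MKNK2, a kinase of eIF4E (-0.31, adjusted p = 0.000147). MTOR fell from 138 and 135 CPM to 111 and 114 CPM (-0.27, SE 0.047, adjusted p = 0.000116). The largest rises were EEF2KMT, a lysine methyltransferase of eEF2 (0.58, adjusted p = 2.93e-05), the poly(A)-associated protein LARP4 (0.35, adjusted p = 1.58e-05) and EIF2AK2, the eIF2 alpha kinase PKR (0.24, adjusted p = 0.00283). EIF4EBP1, the mTOR-regulated inhibitor of eIF4E, was not called (0.03, SE 0.081, adjusted p = 0.813), and neither was the eEF2 kinase gene EEF2K (-0.01, SE 0.049, adjusted p = 0.881).

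Of 20 other initiation, termination and recycling genes, 6 were higher and 3 lower (45% called, beside 41.0% of all genes). ABCE1, which splits ribosomes for recycling, rose from 140 and 134 CPM to 191 and 194 CPM (0.50, SE 0.055, adjusted p = 8.83e-07). The release factor gene ETF1 rose by 0.32 (adjusted p = 3.66e-05) and the helicase gene DHX29 by 0.26 (adjusted p = 0.000381). PAIP2, an inhibitor of the poly(A)-binding protein, fell from 83.7 and 85.8 CPM to 62.5 and 57.4 CPM (-0.50, SE 0.055, adjusted p = 8.22e-07), also with ERCC scaling (-0.61, adjusted p = 0.022). NCBP1 (-0.21, adjusted p = 0.00294) and EEFSEC, the selenocysteine elongation factor (-0.21, adjusted p = 0.0375), were called lower. The EEFSEC call was lost without 0 min replicate 1 (-0.15, adjusted p = 0.218), without 240 min replicate 1 (-0.26, adjusted p = 0.0586) and without 240 min replicate 2 (-0.17, adjusted p = 0.178), and NCBP1 without 240 min replicate 1 (-0.16, adjusted p = 0.06). EEFSEC was also lost with DESeq2 (adjusted p = 0.0975), and in the 3 limma fits of TPM both missed the threshold (adjusted p of 0.0582 to 0.0715 for EEFSEC and 0.0596 to 0.0767 for NCBP1). Of 10 mitochondrial translation factor genes 4 were higher and 0 lower (40% called, beside 41.0% of all genes). Among them were GUF1 (0.47, adjusted p = 7.25e-07), the elongation factor GFM1 (0.38, adjusted p = 7.38e-06) and the recycling factor MRRF (0.27, adjusted p = 0.0111). The last was lost without 0 min replicate 1 (0.21, adjusted p = 0.0894), without 240 min replicate 2 (0.22, adjusted p = 0.0822) and with DESeq2 (adjusted p = 0.0521).

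The transcript starts of the factors were looked at because mRNAs of elongation factors and ribosomal proteins are known to begin with a terminal oligopyrimidine (TOP), a C followed by a run of C and T (U in the RNA) through which mTOR controls their translation. Of the 54 members 45 had an entry in a RefSeq table of starts (GRCh38.p14). The 9 without one include EEF1D and EIF3L, which were called lower, while all 15 members called higher had one. In each entry, 10 bases before to 20 bases after the annotated start, on the transcript strand, were searched for runs of at least 7 C or T. The starts of some genes called lower, higher or not at all are shown here, with such runs in capitals. The lower genes shown are only those that begin with C and at least 5 C or T. In EIF4B the capitals mark a run that begins 8 bases after the start, while the start itself, ctttt, is in lower case. Not shown are the lower genes EIF2B4, EEF1B2 and EEF1G, which had no run of at least 7 C or T. The lower genes EIF4G3 and EIF1, whose runs end before the start, are not shown. The higher genes EIF3J and EIF1AY, which had a run, are not shown either.

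EEF2, chr19:3985444-3985473, minus strand, lower: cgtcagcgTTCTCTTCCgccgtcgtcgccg
EIF4A2, chr3:186783567-186783596, plus strand, lower: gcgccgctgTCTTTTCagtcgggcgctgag
EIF3F, chr11:7987327-7987356, plus strand, lower: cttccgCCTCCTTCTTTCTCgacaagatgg
EIF2S3, chrX:24054946-24054975, plus strand, lower: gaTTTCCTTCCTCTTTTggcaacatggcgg
EIF4B, chr12:53006446-53006475, plus strand, lower: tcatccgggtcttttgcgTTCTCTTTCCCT
EEF1A1, chr6:73521013-73521042, minus strand, not called: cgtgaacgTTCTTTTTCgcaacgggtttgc
EIF3M, chr11:32583821-32583850, plus strand, higher: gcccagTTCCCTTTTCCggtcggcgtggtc
EIF4E, chr4:98929114-98929143, minus strand, higher: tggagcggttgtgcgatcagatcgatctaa
EIF1AX, chrX:20141819-20141848, minus strand, higher: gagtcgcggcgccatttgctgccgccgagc
EIF2S1, chr14:67360318-67360347, plus strand, higher: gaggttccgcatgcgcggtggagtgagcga
EIF5B, chr2:99337379-99337408, plus strand, higher: ctgagaactcacaccatatgtgtcctgttc

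Runs of at least 7 C or T took a larger share of the members called lower at 240 min than of those called higher. They stood in 7 of 10 members called lower, 3 of 15 called higher and 8 of 17 not called, against 19.1% of the 27305 starts in the table and 18.4% of the 10151 tested genes with an entry. Not all of these runs are at the start itself. Among called members, those of EIF4G3 and EIF1 (lower) and EIF1AY (higher) end before it, outside the annotated transcript. Those of EIF4B (lower) and EIF3J (higher) begin 8 and 13 bases after it. A start of C with at least 5 C or T from the start on was found in 5 of the 10 lower members, 1 of the 15 higher ones (EIF3M) and 4 of the 17 not called, against 5.38% of tested genes. Of the lower members with this start (EEF2, EIF4A2, EIF3F, EIF2S3 and EIF4B), only EIF4A2 kept its call under each alternative other than ERCC scaling and without each library. The call of EIF3M did not hold in this way either. The 10 tested members with such a start had a median log2 fold change of -0.14 at 240 against 0 min (1 higher, 5 lower) and the 32 without it 0.15 (14 higher, 5 lower). Outside the members, 536 tested genes with such a start had a median of -0.05, with 15.7% higher and 25.7% lower. Without the ribosomal protein genes the 494 left had a median of -0.04, with 16.8% higher and 24.5% lower, and the 9573 genes without such a start -0.01, with 21.5% each way. The run was looked for after the calls were known, a match in an annotated start is a description and not a working site, and no test was made.

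**Figure D3:**
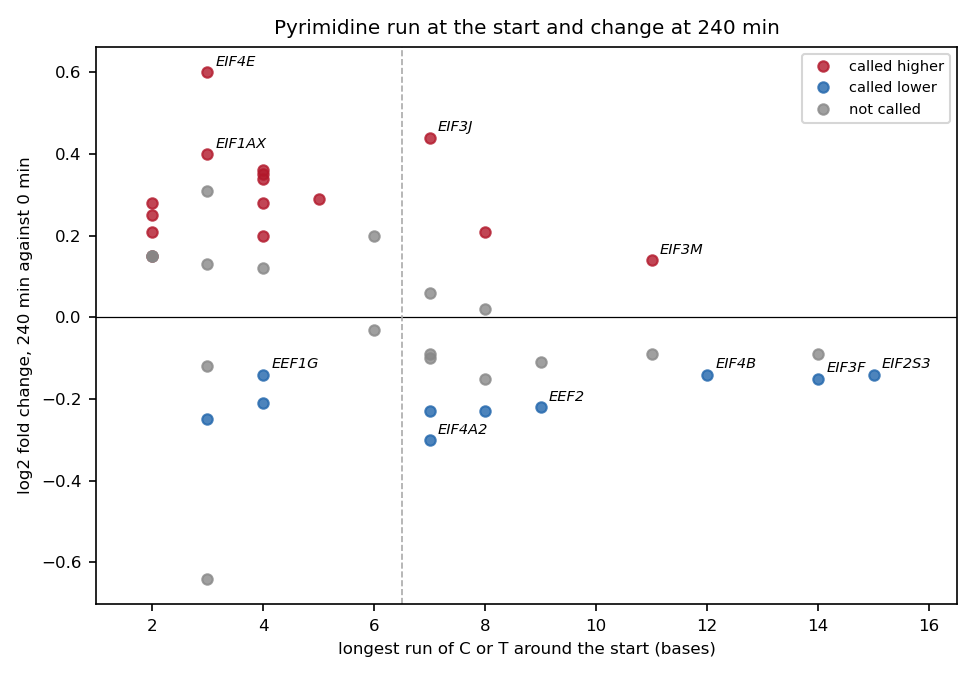
Longest run of C or T in the 30 bases around the annotated start (in bases) against the log2 fold change at 240 against 0 min, for the tested members with an entry, colored by call, with a dashed line left of runs of 7. Members called higher lie mostly left of the line and 7 of 10 called lower lie right of it.

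IR ChIP-seq peaks near the factor genes were about as frequent as near other genes. The list held 1971 peaks from 1 library, so no replicate error can be given. Of the 50 tested members 8 had a peak within the gene body extended by 5 kb (16.0%), beside 15.7% of all tested genes. With an extension of 1 kb it was 7 members beside 14.1% of tested genes, and within 1 kb of the start 7 members (14.0%) beside 12.3%. Only EIF2B4 and EIF1B had a peak scoring above the median of the list (4.0% of the members, beside 8.78% of tested genes). The peak at the start of EIF2B4 (chr2:27593173-27593724, hg19) had a score of 450 and ranked 297, and the HOMER annotation lists it under SNX17. The peak over the start of EIF1B (chr3:40350953-40351351) had a score of 203 and ranked 511. The remaining peaks, at EIF1, EIF1AD, EIF6, EIF2A and EIF4ENIF1 and upstream of EEF2 in intergenic sequence (chr19:3990245-3990705), scored 23 to 67. The HOMER annotation lists those of EIF1AD, EIF4ENIF1 and EEF2 under BANF1, SFI1 and SNORD37.

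The part of the EIF1B peak before the annotated start is printed because EIF1B was the member that both rose at 240 min and held a peak above the median score. It covers chr3:40350953-40351172 (GRCh37, plus strand, upstream of the gene), 220 bases with 69.1% G and C. All of it also lies within the gene EIF1B-AS1 on the opposite strand (chr3:40214638-40351189, minus strand), next to that gene's start.

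EIF1B peak: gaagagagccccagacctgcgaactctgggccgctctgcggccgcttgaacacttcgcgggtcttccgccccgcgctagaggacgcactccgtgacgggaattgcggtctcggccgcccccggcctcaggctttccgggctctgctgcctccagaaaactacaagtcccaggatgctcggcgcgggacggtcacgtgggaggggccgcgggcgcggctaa

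Members with a peak went both ways at 240 against 0 min. EIF1B and EIF1AD were called higher, EIF2B4, EIF1 and EEF2 lower, and EIF6, EIF2A and EIF4ENIF1 were not called.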

How the data were processed

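RNA-seq was measured in 10 HepG2 libraries and IR ChIP-seq in 1 library with its input. In the nf-core pipeline the authors trimmed the single-end reads with Trim Galore 0.6.4, aligned them to hg19 with STAR 2.6.1d, marked duplicates and counted reads per gene with featureCounts 1.6.4, set to reverse strand, and deposited raw counts. The authors also deposited TPM values per gene from StringTie. For the ChIP-seq the authors aligned reads with BWA 0.7.17-r1188, called peaks with MACS2 2.2.7.1 and deposited a HOMER-annotated peak list with the score of each peak. The annotation release is not given in the sources used here, and the extract protocols in the labels appear exchanged between RNA-seq and ChIP-seq.

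The 92 ERCC rows (1.59% to 2.36% of counts) were removed before library sizes were summed. The counts were analyzed with edgeR 4.0.16 in R 4.3.3 (TMM, filterByExpr with times as groups, quasi-likelihood test) in 1 model of 10 libraries with time as the only term, with Benjamini-Hochberg adjustment over 13852 genes and calls at an adjusted p-value under 0.05, as were all calls in the text. Standard errors were computed as the log2 fold change over the root of its F statistic. Replicates differed by more than sampling noise (chi-square per degree of freedom 2.86 to 6.46). EIF4A1, EIF3C and EIF3CL, with 0 counts, were tested with limma 3.58.1 on log2(TPM + 1). Alternatives were DESeq2 1.42.0, no filter, RLE, ERCC scaling, a replicate block, only the times compared, 3 limma fits of TPM and leaving out each library. The edgeR script was tested on simulated data. Positions are those of the StringTie tables (hg19). Starts are from RefSeq (GRCh38.p14), where the protein table was not used here. Figures were drawn with matplotlib 3.10.9.

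The members, role groups, pathway lists and named genes were chosen with earlier results of these data known. Named in full were EEF1A1, EEF2, EIF4E, EIF4A1, EIF4A2, EIF4G1, EIF2S1, EIF3A, EIF5A, EIF6, the 8 largest rises and 8 largest falls among members called at 240 against 0 min and members called in other comparisons, with EIF3K, EIF4EBP1, EEF2K, PDCD4, MTOR and the 3 largest rises and falls of each pathway list.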

Additional observations from a re-analysis of the deposited data

How the results depend on the processing

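At 240 against 0 min, 27 members were called, and the alternatives other than ERCC scaling and left-out libraries gave 17 to 28, the lowest being 17 with limma on log2(TPM + 0.1), where the filter on mean TPM of at least 1 gave 19. Leaving out each library gave 17 to 23. Scaling by ERCC spike-ins gave 0 at 240 min against 0 min and 0 against 30 min, where the main count was 26 and the other alternatives gave 20 to 28. At 5 min, 1 member was called without the filter on low counts, EEF1B2 (-0.23). The count of members with an IR peak was 8, and 2 with only peaks scoring above the median. The replicate numbers did not pair the libraries (correlations of deviations -0.358 to 0.322 over 10 pairs, 5 above 0.1), and a replicate block gave 28 called at 240 against 0 min and 28 against 30 min, and 0 at each earlier time.

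Over the 54 genes named with a fold change at 240 against 0 min, 386 of 432 values under the alternatives other than ERCC scaling and left-out libraries kept direction and call, 34 lost the call, 3 gained it and 9 turned direction. Of the 216 values without 1 library, 174 kept both, 36 lost the call, 4 gained it and 2 turned. With ERCC scaling 41 of 54 lost the call and 2 turned. The values that turned were EEF1B2 and EEF1D (0.02 each) and EEF2K (0.02) in the 3 limma fits of TPM, EIF2B2 (-0.01) and EIF4EBP1 (-0.10) with ERCC scaling, EIF4EBP1 without 0 min replicate 2 (-0.08, with 0.11 at the other end of the range over left-out libraries) and EEF2K without 0 min replicate 1 (0.03, with -0.06 at the other end). The cause was not tested. With 2 libraries a time, small changes of genes such as EEF1A2 and EIF4E3, at a few CPM, could not be told from the spread.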
